A study of Homo sapiens with 12 samples.

Results

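The mRNAs of 5 TNF receptor superfamily genes, TNFRSF1B, TNFRSF4, TNFRSF9, TNFRSF18 and TNFRSF25, were read across 4 comparisons in Jurkat cells, an established human T-cell leukaemia line. The genes were chosen by symbol from the 2587 genes of the authors' deposited table, with earlier results of these data known. Their presence in that table is therefore not a result. The 12 libraries, all of poly(A) RNA, form 4 groups of 3. HuRKO activated and WT activated cells received 20 ng/mL PMA and 500 ng/mL ionomycin for 24 h, and HuRKO rest and WT rest cells were left without them for that time. HuRKO cells were knocked out for HuR, a protein encoded by ELAVL1 that binds U-rich and AU-rich stretches of mRNA, and WT cells carry the intact gene. Beyond the name HuRKO, the labels give no detail of the knockout, such as whether the line grew from 1 clone. PMA activates protein kinase C and ionomycin lets calcium into the cell, which together stand in for a signal through the T-cell receptor.

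TNF receptors bind ligands of the TNF superfamily, most of which are proteins of the surface of other cells. Once clustered, most of them recruit TRAF adaptor proteins and switch on NF-kB, and those with a death domain can also start apoptosis. TNFRSF1B (TNF receptor type II) binds TNF and lymphotoxin alpha, TNFRSF4 (OX40) binds TNFSF4, TNFRSF9 (CD137) binds TNFSF9, TNFRSF18 (GITR) binds TNFSF18, and TNFRSF25 (death receptor 3) binds TNFSF15. In T cells TNFRSF4, TNFRSF9 and TNFRSF18 are costimulatory receptors that appear or increase after antigen. TNFRSF25 carries a death domain and also costimulates T cells.

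The table gives, for each gene, its mean over all libraries and the log2 change and false discovery rate (FDR) of each comparison, so no value per library can be shown. A call means an FDR below 0.05. The FDR is an adjusted p-value, and the spread between libraries is not given. Every one of the 2587 genes has a change of more than 4-fold at that FDR in at least 1 comparison, so a share of them is a share of strongly changing genes. Levels below are normalised counts, rebuilt for each group from the mean and the changes, with no error of their own beside them. The lowest level read as present, called the floor, is 3 counts over the 3 libraries of a group, or a level of 1. In bulk RNA, fewer cells with an mRNA and less of it per cell cannot be told apart. ELAVL1 was at a level of 471 in HuRKO activated cells against 2552 in WT activated cells, and at 596 in HuRKO rest cells against 4042 in WT rest cells (FDR 1.2e-131 and 2.6e-172 in the authors' deposited table). Of 15 T-cell marker genes, 6 are in the table, and their summed level was 28070 in HuRKO activated, 26584 in WT activated, 4999 in HuRKO rest and 10745 in WT rest cells. Most of the sum in activated cells is TRAC, and the members differed both ways: in HuRKO activated against WT activated cells CD28, CD4 and CD8B were higher, TRAC and CD2 lower and CD7 not called. The call of CD8B rests on few reads, with a level of 7.25 in HuRKO activated cells and one below the floor in WT activated cells. CD28 was at 9052 in HuRKO activated against 1342 in WT activated cells, and CD2 at 400 in HuRKO activated against 1307 in WT activated cells (FDR 1.4e-107 and 7.8e-51 in the authors' deposited table). CD3D, CD3E, CD3G and the rest of that list were not analysed here.

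All 5 genes lie on chromosome 1, along 11.0 Mb from position 1203508 to 12209228 of hg38. TNFRSF18 (ENSG00000186891.13, 1203508 to 1206691) and TNFRSF4 (ENSG00000186827.10, 1211326 to 1214138) are neighbours on the minus strand, separated by 4634 bases. TNFRSF25 (ENSG00000215788.9, 6460786 to 6466195) and TNFRSF9 (ENSG00000049249.8, 7915894 to 7943165) are on the minus strand too, and TNFRSF1B (ENSG00000028137.18, 12167003 to 12209228) is on the plus strand. TNFRSF25 shares 582 bases with ESPN on the opposite strand and 104 bases with PLEKHG5 on its own strand, so some of its reads could belong to those genes, depending on a counting setting that no source used here gives.

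Promoters of 4 of the 5 genes were read, from 250 bases before to 50 after the gene start (RefSeq, GRCh38.p14), and the entry of TNFRSF4 is missing. Motifs were searched on both strands, as letters only: GGG followed by any 3 bases and TTCC for NF-kB, TGANTCA for AP-1 and GGAAA for NFAT, the factors best known downstream of PMA and ionomycin. TNFRSF9 held an NF-kB match and an AP-1 match, the only ones in these 4 promoters, and they are printed because that gene had the largest response to activation of the 5. The window of TNFRSF9, 7940790 to 7941089, lies inside the GENCODE span given above, which runs to 7943165, so distances are from the RefSeq start. The first line below has the NF-kB match in capitals, 74 to 65 bases before that start. The second has the AP-1 match, 44 to 38 bases before it.
TNFRSF9, chr1:7940894-7940923, minus strand: gagctgtggtGGGAATTTCCcatgagaccc
TNFRSF9, chr1:7940865-7940894, minus strand: ccgcccctggcTGAGTCAccgcactcctgt
The NF-kB letters were also read on the opposite strand of the first site, 1 base along, and an NFAT match lies inside it. Of 35116 promoters of the same length, 6.52% held the NF-kB letters, 7.71% the AP-1 letters and 61.2% the NFAT letters. TNFRSF9 held 3 NFAT matches and TNFRSF18 held 1, and TNFRSF1B and TNFRSF25 held none of the 3 motifs in this window. A match of letters is not shown to be a bound site.

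Since HuR binds U-rich and AU-rich RNA, 3′ UTRs (GENCODE 29, 1 transcript a gene) were searched on the transcript strand for ATTTA and for TTTNTTT. In these transcripts 0 of the 5 genes held ATTTA, against 63.8% of 18913 protein-coding genes, whose median 3′ UTR was 850 bases long. The 3′ UTRs of TNFRSF18, TNFRSF4 and TNFRSF25 were 83, 229 and 283 bases long and held neither motif. Counted with overlaps, TNFRSF9 held 13 TTTNTTT matches in 988 bases, of which 9 lie in 1 run of T. TNFRSF1B held 8 in 2208 bases, and all but the last of them lie in 1 repeat of TTTG. At least 1 match was held by 62.6% of the 18913 genes. The lines below show, with a match in capitals, a U-rich site of TNFRSF9 and one of TNFRSF1B.
TNFRSF9, chr1:7920471-7920500, minus strand: cttttttgtttTTTGTTTggtaaagatggc
TNFRSF1B, chr1:12207369-12207398, plus strand: ttgtttgtttgTTTGTTTgtttctccccct
The choice of transcript matters for TNFRSF9. A longer annotated transcript has a 3′ UTR of 4941 bases, which holds 9 ATTTA and 29 TTTNTTT matches. One of the 9, printed because it joins both motif types in 1 stretch of A and T, follows with ATTTA in capitals.
TNFRSF9, chr1:7917930-7917959, minus strand: atatcctttgtaATTTAtttttcccttttt
Which of these 3′ ends the cells used cannot be read from the table, and binding of HuR was not measured in it.

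The comparison of HuRKO activated with WT activated cells reads how the HuRKO and WT lines differ after stimulation. In it, loss of HuR cannot be told apart from other differences between the lines. All 5 receptor mRNAs were lower in HuRKO activated cells, by between 2.46-fold and 27.3-fold. At the same FDR 35.4% of the 2587 listed genes were lower and 42.2% higher. The median log2 change of the 5 receptors was -3.12, against 0.36 over all listed genes. TNFRSF9, TNFRSF18 and TNFRSF4 fell by more than 4-fold, as did 22.3% of listed genes, and TNFRSF1B and TNFRSF25 fell by less.

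TNFRSF9, a costimulatory receptor induced on antigen-activated T cells, was at a level of 163 in HuRKO activated cells against 4446 in WT activated cells. That is a log2 change of -4.77 (FDR 1.6e-46 in the authors' deposited table), the 89th lowest of the 2587. At rest it was barely detected, at 1.69 in HuRKO rest and 1.05 in WT rest cells. Those levels are 5.08 and 3.14 normalised counts summed over 3 libraries, next to the floor of 3. So 96.4% of the sum of its 4 group levels came from WT activated cells.

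TNFRSF4, whose ligand TNFSF4 is displayed by antigen-presenting and activated cells, was at 171 in HuRKO activated cells against 1488 in WT activated cells. The log2 change was -3.12 (FDR 1.9e-57 in the authors' deposited table). Unlike the others it was abundant before stimulation, at 1407 in HuRKO rest against 425 in WT rest cells. The levels in HuRKO rest and WT activated cells were close, at 1407 and 1488, but that pair is not among the comparisons of the table.

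TNFRSF18, a receptor that is also prominent on regulatory T cells, was low in every group. Its level was 1.58 in HuRKO activated cells against 15.9 in WT activated cells, and 9.03 in HuRKO rest against 3.78 in WT rest cells. The log2 change after activation was -3.33 (FDR 0.0022 in the authors' deposited table). The level in HuRKO activated cells stands for 4.73 normalised counts over 3 libraries, so the 10.1-fold difference rests on few reads.

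TNFRSF1B, the TNF receptor that lacks a death domain, was at 475 in HuRKO activated cells against 1223 in WT activated cells. It fell by 1.37 on the log2 scale (FDR 9.6e-04 in the authors' deposited table). TNFRSF25 was at 125 in HuRKO activated cells against 309 in WT activated cells, and it fell by 1.30 on the log2 scale (FDR 5.6e-10 in the authors' deposited table). These 2 falls were of 2.58-fold and 2.46-fold and lie inside the middle range of listed genes, whose lower quartile was -1.76.

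**Figure D1:**
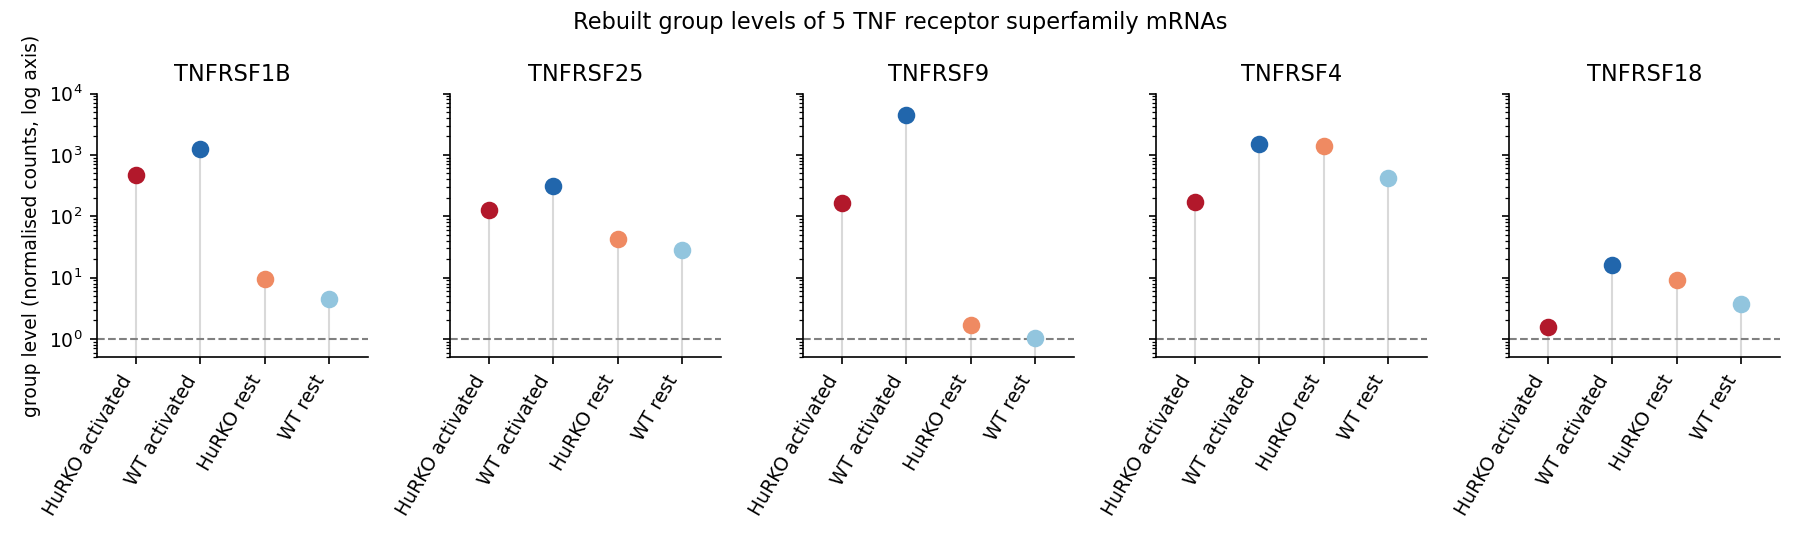
Rebuilt level of each receptor mRNA in each group, in normalised counts on a log axis, with 1 point for a group of 3 libraries and no error, and the dashed line at the floor of 1. HuRKO activated lies below WT activated in all 5 panels, and in TNFRSF4 and TNFRSF18 it lies below HuRKO rest as well.

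The comparison of HuRKO rest with WT rest cells asks what differs before stimulation. Here TNFRSF4 alone of the 5 passed the threshold, and it rose. Its level was 1407 in HuRKO rest against 425 in WT rest cells, a 3.31-fold rise (1.73 on the log2 scale, FDR 1.8e-18 in the authors' deposited table). At rest 25.0% of the table was higher and 15.4% lower, so 1 of 5 higher is near the background. A rise of 4-fold or more was seen in 13.7% of the table and in 0 of the 5. The other 4 had positive log2 changes that did not pass. These were 1.26 for TNFRSF18 (FDR 0.37), 1.10 for TNFRSF1B (FDR 0.21), 0.69 for TNFRSF9 (FDR 0.74) and 0.58 for TNFRSF25 (FDR 0.12), all in the authors' deposited table. The resting levels of TNFRSF1B (9.51 in HuRKO rest against 4.45 in WT rest) and TNFRSF9 leave little depth to detect a difference of that size.

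Activation of WT cells, comparing WT activated with WT rest cells, raised all 5 mRNAs, while 52.0% of listed genes rose and 21.8% fell. The size of the rise differed widely among the receptors. TNFRSF9 rose 4241-fold, from the near-floor level given above, with a log2 change of 12.05 (FDR 4.2e-40 in the authors' deposited table). It ranked 14th from the top among the 2587 listed genes. TNFRSF1B rose 275-fold, to 1223 in WT activated against 4.45 in WT rest cells (FDR 5.0e-47 in the authors' deposited table), and ranked 76th. TNFRSF25 rose 10.8-fold, to 309 in WT activated against 28.6 in WT rest cells (FDR 1.5e-42 in the authors' deposited table). It changed by more than 4-fold in this comparison alone. A call here was thus the condition of its listing, and its place among the 5 is not a result. TNFRSF18 and TNFRSF4 rose 4.20-fold and 3.51-fold, with FDR values of 0.042 and 5.7e-21 in the authors' deposited table. The call for TNFRSF18 is thus close to the threshold.

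In HuRKO cells the same stimulus split the receptors, comparing HuRKO activated with HuRKO rest cells. TNFRSF9, TNFRSF1B and TNFRSF25 rose, and TNFRSF4 and TNFRSF18 fell, while 58.1% of listed genes rose and 18.5% fell. TNFRSF9 rose 96.2-fold, to 163 in HuRKO activated against 1.69 in HuRKO rest cells (FDR 1.0e-18 in the authors' deposited table). TNFRSF1B rose 49.9-fold, to 475 in HuRKO activated against 9.51 in HuRKO rest cells (FDR 6.7e-32 in the authors' deposited table). TNFRSF25 rose 2.93-fold, to 125 in HuRKO activated against 42.8 in HuRKO rest cells (FDR 1.6e-10 in the authors' deposited table). TNFRSF4 fell 8.24-fold, to 171 in HuRKO activated against 1407 in HuRKO rest cells (FDR 7.7e-55 in the authors' deposited table). TNFRSF18 fell 5.73-fold, to 1.58 in HuRKO activated against 9.03 in HuRKO rest cells (FDR 0.023 in the authors' deposited table). The adjacent pair TNFRSF4 and TNFRSF18 thus rose on activation of WT cells and fell on activation of HuRKO cells.

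The log2 response in HuRKO cells minus that in WT cells was below 0 for all 5. It was -5.46 for TNFRSF9, -4.85 for TNFRSF4, -4.59 for TNFRSF18, -2.46 for TNFRSF1B and -1.88 for TNFRSF25. Over all listed genes the median of this difference was -0.07, 51.1% of genes were below 0, and the 5th percentile was -4.22. The table holds no test of this difference, and its 4 comparisons share libraries in pairs, so the differences are given as a description. By arithmetic, each equals the log2 change of HuRKO over WT in activated cells minus that at rest. All 5 receptors were below 0 in the first and above 0 in the second. That the 5 differences are below 0 follows from this and is not a further result.

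**Figure D2:**
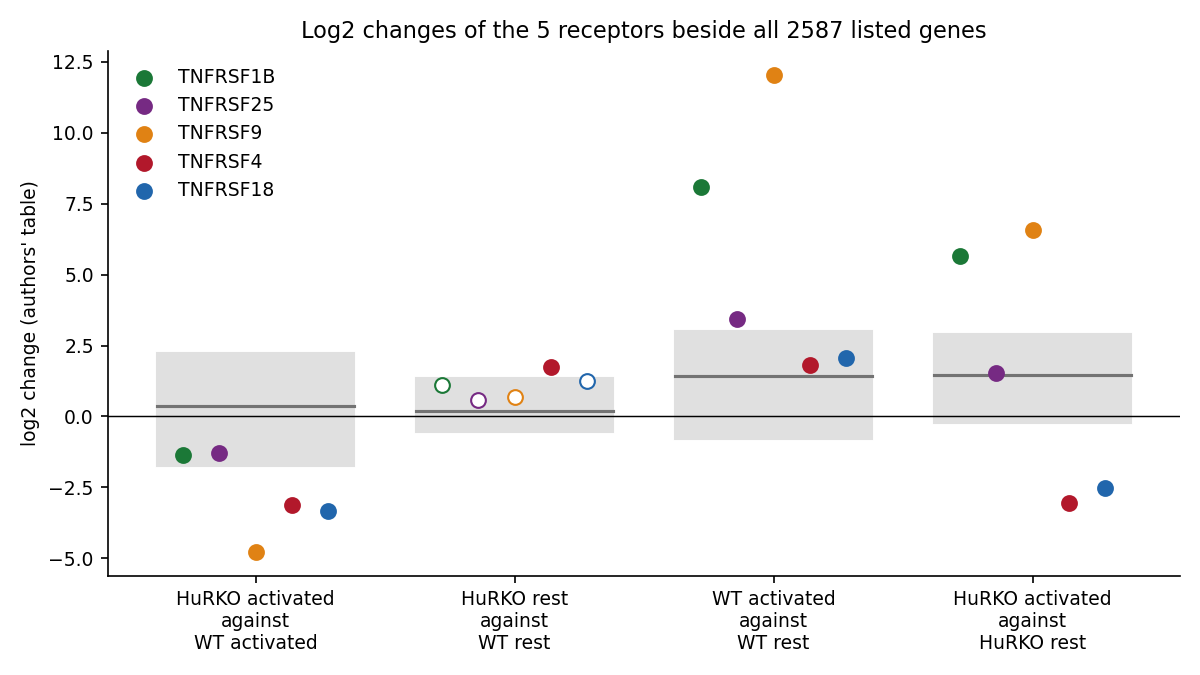
Log2 change of each receptor in the 4 comparisons of the authors' deposited table, filled where the FDR is below 0.05, with the grey box from the lower to the upper quartile of all 2587 listed genes and the line at their median. All 5 points are below 0 for HuRKO activated against WT activated, and TNFRSF4 and TNFRSF18 part from the other 3 in HuRKO activated against HuRKO rest, at -3.04 and -2.52.

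Levels of different genes were compared per kb of annotated exon, still in normalised counts. In WT activated cells TNFRSF4 stood highest at 865 per kb, then TNFRSF9 at 702, TNFRSF1B at 325, TNFRSF25 at 72.1 and TNFRSF18 at 11.6. In HuRKO activated cells the order was TNFRSF1B at 126 per kb, TNFRSF4 at 99.2, TNFRSF25 at 29.2, TNFRSF9 at 25.7 and TNFRSF18 at 1.15. In HuRKO rest cells TNFRSF4 stood far above the rest at 818 per kb, with the next, TNFRSF25, at 9.99. In WT rest cells they were at 247 and 6.69 per kb. Neighbours in these orders carry no error here, so close ones such as TNFRSF25 and TNFRSF9 in HuRKO activated cells are not shown to differ. The orders also rest on reading the table's mean as arithmetic. With that mean read as geometric, TNFRSF9 came first in both activated groups. It was then at 881 per kb in HuRKO activated cells, ahead of TNFRSF1B at 766 and TNFRSF4 at 139. In WT activated cells it was then at 24039 per kb, ahead of TNFRSF1B at 1975 and TNFRSF4 at 1209. TNFRSF4 stayed highest in both resting groups under that reading. The lengths are of all annotated exons of a gene, and a shorter transcript in use would raise its value per kb.

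By the shape of their 4 group levels, TNFRSF4 and TNFRSF18 were the most alike of the 5. The root mean square distance between their log2 levels, each centred on its own mean over the 4 groups, was 0.27, against 1.55 or more between any other pair of receptors. Neither was the nearest protein-coding gene of the table to the other, so the likeness is not particular to the pair. GNG4 (a G protein gamma subunit) was among the 3 nearest genes for both. GNG4 was at a level of 167 in HuRKO activated, 1139 in WT activated, 1161 in HuRKO rest and 363 in WT rest cells, 0.13 from TNFRSF4. It was 0.30 from TNFRSF18. Nearest to TNFRSF9 were XCL2, MB (myoglobin) and XCL1, at distances of 0.59, 0.64 and 0.78, of which XCL1 and XCL2 are near-identical chemokine genes whose separate counts are uncertain. Nearest to TNFRSF1B were IL4I1, PHLDA1 and EGR1, from 0.32 to 0.40, and nearest to TNFRSF25 were ADRA2B, NAB2 and CDYL2, from 0.10 to 0.13. These rest on 4 group levels, which many genes can match. The levels of TNFRSF18 were low in every group, so its distances are imprecise.

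The ligands of these receptors did not all follow them. Of 6 ligand genes, 4 are in the table, and TNFSF9 and TNFSF18 were not analysed here. In HuRKO activated against WT activated cells, TNF, LTA and TNFSF15 fell and TNFSF4 was not called, beside 35.4% of listed genes lower. TNF, the inflammatory cytokine bound by TNFRSF1B, was at 65.7 in HuRKO activated against 1587 in WT activated cells (FDR 5.0e-112 in the authors' deposited table). LTA, the other ligand of that receptor, was at 179 in HuRKO activated against 1493 in WT activated cells (FDR 1.3e-89 in the authors' deposited table). Both ligands were thus 24.2-fold and 8.36-fold lower, against 2.58-fold for their receptor. TNFSF15, the ligand of TNFRSF25, was at 29.5 in HuRKO activated against 101 in WT activated cells (FDR 5.0e-04 in the authors' deposited table).

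TNFSF4 and its receptor TNFRSF4 differed at rest in opposite directions. The ligand was at 48.2 in HuRKO rest against 304 in WT rest cells (-2.66 on the log2 scale, FDR 3.2e-24 in the authors' deposited table), while the receptor was higher there. In activated cells the ligand was at 355 in HuRKO activated against 276 in WT activated cells (FDR 0.16 in the authors' deposited table), while the receptor was 8.71-fold lower. On activation of HuRKO cells TNFSF4 rose 7.37-fold (FDR 8.5e-30 in the authors' deposited table) and its receptor fell. At rest TNF and LTA were lower in HuRKO cells as well, and TNFSF15 was not called (FDR 0.98 in the authors' deposited table).

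Of 24 other TNF receptor superfamily genes, 4 are in the table, and these did not move as 1 group. In HuRKO activated against WT activated cells 1 fell, 1 rose and 2 were not called, beside 35.4% of listed genes lower and 42.2% higher. CD27, a costimulatory receptor of resting T cells, was at 101 in HuRKO activated against 1264 in WT activated cells (FDR 2.9e-127 in the authors' deposited table). TNFRSF13C, known as the BAFF receptor of B cells, was at 175 in HuRKO activated against 45.6 in WT activated cells, and at 191 in HuRKO rest against 44.6 in WT rest cells (FDR 2.9e-12 and 3.4e-13 in the authors' deposited table). TNFRSF12A, the TWEAK receptor, was at 110 in HuRKO activated against 108 in WT activated cells (FDR 0.96 in the authors' deposited table). TNFRSF10C was at 6.56 in HuRKO activated against 6.75 in WT activated cells (FDR 0.97 in the authors' deposited table). The median log2 change of these 4 was -0.01, against 0.36 over all listed genes. At rest TNFRSF13C and TNFRSF10C were higher, CD27 was lower and TNFRSF12A was not called.

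Of 12 other TNF superfamily ligands, 7 are in the table. In HuRKO activated against WT activated cells 3 rose (CD40LG, TNFSF10 and LTB), 3 fell (TNFSF8, TNFSF14 and CD70) and FASLG was not called. Of listed genes 42.2% were higher and 35.4% lower. TNFSF14, also called LIGHT, was at 70.1 in HuRKO activated against 4993 in WT activated cells, and CD70, the ligand of CD27, was at 285 in HuRKO activated against 658 in WT activated cells. Their FDR values were 1.4e-45 and 3.0e-13 in the authors' deposited table.

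Downstream of the receptors, 4 of 25 adaptor and proximal signalling genes are in the table. All 4 fell in HuRKO activated against WT activated cells, with a median log2 change of -1.77. Of all listed genes 35.4% were lower, and the median log2 change was 0.36. Genes outside the table were not read, so these 4 do not stand for the 25. TRAF1, an adaptor recruited by TNFRSF1B, TNFRSF4, TNFRSF9 and TNFRSF18, was at 2112 in HuRKO activated against 12015 in WT activated cells (-2.51 on the log2 scale, FDR 1.1e-63 in the authors' deposited table). BIRC3, a ubiquitin ligase of TRAF complexes, was 3.67-fold lower (FDR 3.0e-38), and CFLAR, which restrains caspase-8, was 3.16-fold lower (FDR 9.7e-57), both in the authors' deposited table. TNFAIP3, which ends NF-kB signalling, was at 6766 in HuRKO activated against 8239 in WT activated cells, only 1.22-fold lower (FDR 0.014 in the authors' deposited table). At rest TRAF1 and BIRC3 were lower in HuRKO cells, and CFLAR and TNFAIP3 were not called.

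Of 15 genes of NF-kB subunits and regulators, 6 are in the table. In HuRKO activated against WT activated cells NFKB2, RELB, REL, NFKBIE and NFKBID fell and BCL3 rose, with a median log2 change of -1.12. Of all listed genes 35.4% were lower and 42.2% higher, with a median of 0.36. REL, the subunit most tied to lymphocyte activation, was at 788 in HuRKO activated against 2486 in WT activated cells (FDR 1.8e-33 in the authors' deposited table). BCL3, a nuclear IκB family protein, was at 238 in HuRKO activated against 38.4 in WT activated cells (FDR 3.1e-20 in the authors' deposited table). At rest 0 of these 6 were called at FDR below 0.05, beside 25.0% of listed genes higher and 15.4% lower. Their smallest FDR was 0.15, for RELB, in the authors' deposited table. On activation of WT cells all 6 rose, and on activation of HuRKO cells 5 rose and NFKBID was not called. Of listed genes 52.0% rose in WT cells and 58.1% in HuRKO cells. Of 7 genes tied to receptor shedding and secretion, LGALS9 (galectin-9) is named as the 1 found in the table, at 3925 in HuRKO activated against 784 in WT activated cells (FDR 9.8e-40 in the authors' deposited table).

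**Figure D3:**
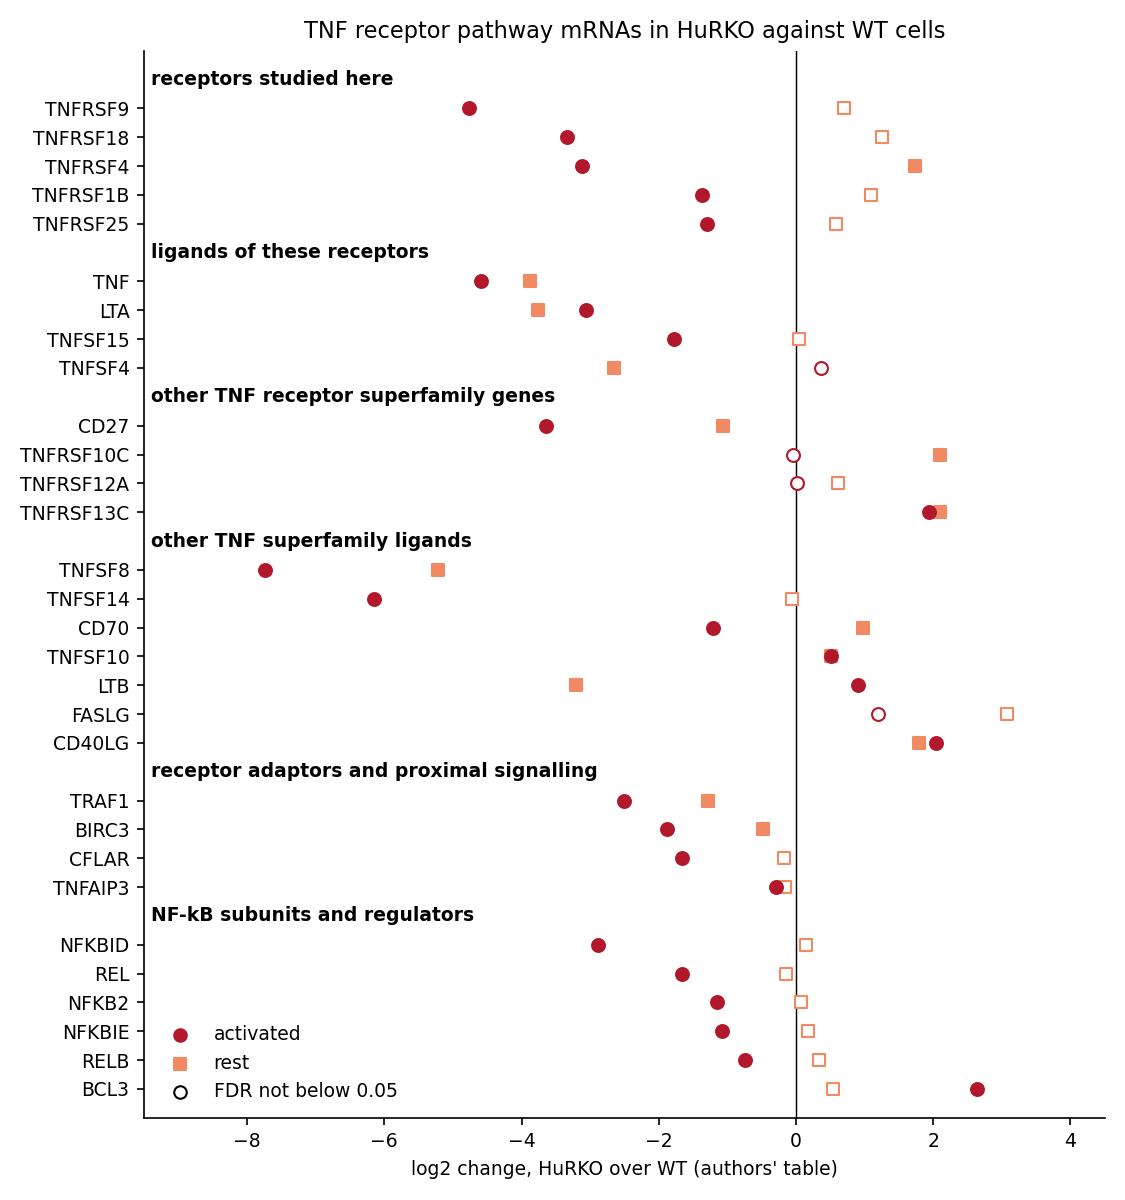
Log2 change of HuRKO over WT in activated cells (circles) and at rest (squares) for listed genes of the TNF receptor pathway, filled where the FDR in the authors' deposited table is below 0.05. The 5 receptors are filled and left of 0 in activated cells, while at rest TNFRSF4 is the 1 receptor filled. TNF and LTA are filled and left of 0 in both states, and the 6 NF-kB genes are open at rest.

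Because the 5 genes share the end of chromosome 1, genes next to them were read for the same comparisons. Within 250 kb of a receptor gene the table holds 8 other genes. In HuRKO rest against WT rest cells 6 of the 8 were higher and 0 lower, with a median log2 change of 1.08, beside the background of 25.0% higher. HES4, a Notch-responsive repressor near TNFRSF18, was at a level of 1961 in HuRKO rest against 1203 in WT rest cells, and VWA1, on the other side, at 33.9 in HuRKO rest against 5.29 in WT rest cells. ERRFI1, a feedback inhibitor of EGF receptor signalling that lies 61.2 kb from TNFRSF9, was at 70.4 in HuRKO rest against 28.9 in WT rest cells. HES2, 36.1 kb from TNFRSF25, was at 35.1 in HuRKO rest against 8.48 in WT rest cells, while ISG15 near TNFRSF18 was not called. HES2 and RNF207, with log2 changes of 2.05 and 2.40, changed by more than 4-fold in this comparison alone. Being called here was thus the condition of their listing, and their share in the count is not a result.

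In HuRKO activated against WT activated cells 0 of the 8 neighbours were higher, beside 42.2% of listed genes. Of the 8, 3 were lower, a share near the 35.4% of listed genes that were lower, and all 5 receptors were lower. The 3 were ISG15, an interferon-induced modifier, at 492 in HuRKO activated against 2105 in WT activated cells, HES4, and the non-coding AL645608.8. HES4 was at 52.7 in HuRKO activated against 134 in WT activated cells. Along the whole 11.0 Mb from TNFRSF18 to TNFRSF1B, the table holds 17 genes other than the receptors, 4 of them among the 8 above. Of the 17, 5 were higher, 5 lower and 7 not called in activated cells, beside 42.2% of listed genes higher and 35.4% lower. At rest 8 of these 17 were higher and 1 lower, beside 25.0% of listed genes higher and 15.4% lower. HES2 and RNF207, listed only through the comparison at rest, are among the 8. A shared cause for neighbouring genes, such as a change in the number of copies of the region in the HuRKO line, was not tested.

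**Figure D4:**
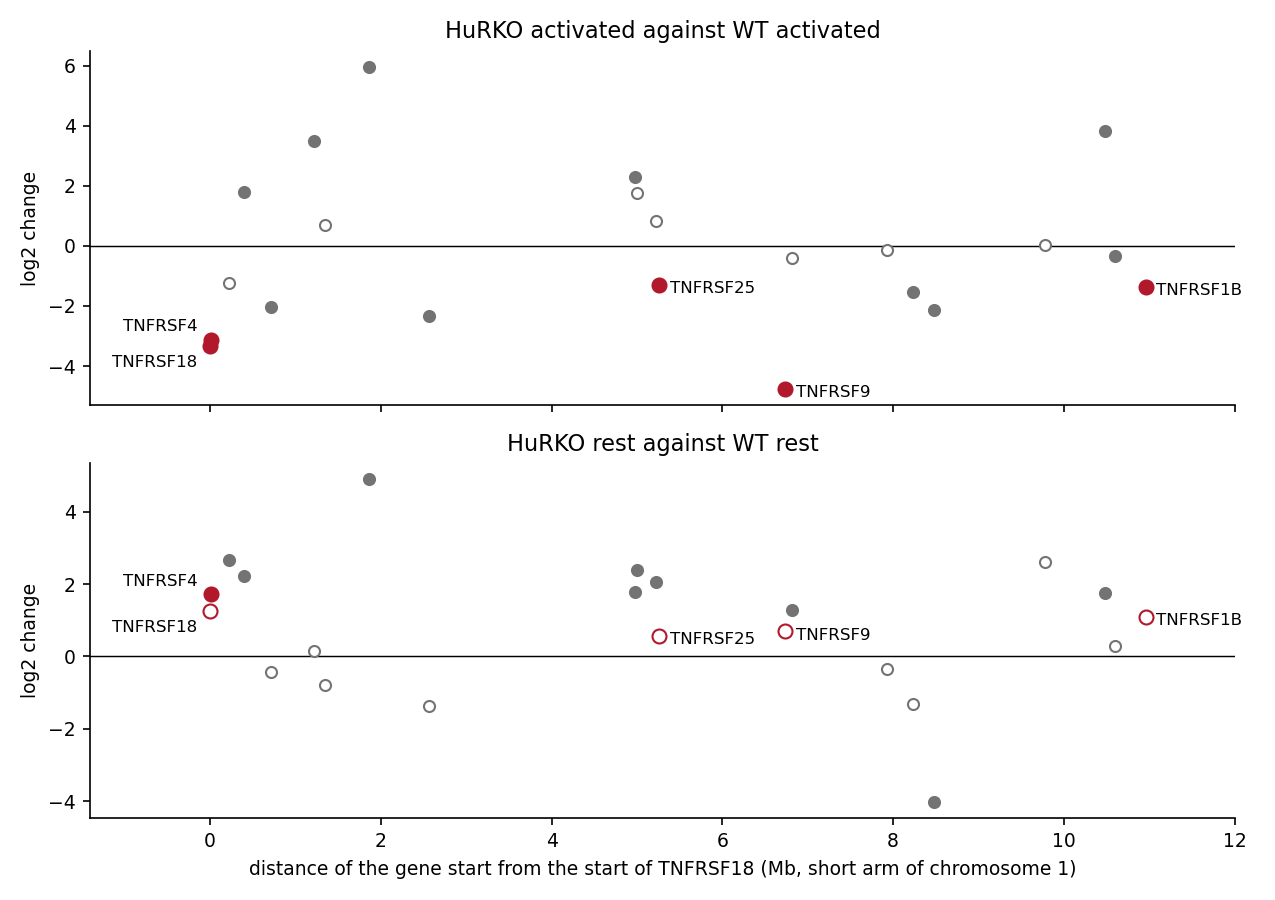
Log2 change of HuRKO over WT for every listed gene from TNFRSF18 to TNFRSF1B on chromosome 1, by the distance of its start from that of TNFRSF18 in Mb, in activated cells (top) and at rest (bottom). Receptors are red, other genes grey, and filled points have an FDR below 0.05 in the authors' deposited table. The grey points lie on both sides of 0 in activated cells, where all 5 receptors lie below it.

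Some genes used as markers of other blood cells are in the table, and their summed levels were higher in activated than in resting cells. Whether any other cells were present was not tested. Not every marker was called on activation. NCAM1 was not called in WT or HuRKO cells (FDR 0.61 and 0.69), nor CD79B in HuRKO cells (FDR 0.21), in the authors' deposited table. Markers outside the table were not read. Of 8 natural killer cell markers, 6 are in the table, with a summed level of 1449 in HuRKO activated, 1193 in WT activated, 227 in HuRKO rest and 145 in WT rest cells, most of it from PRF1. Of 8 B-cell markers, IGHM and CD79B are in the table, at a summed level of 314 in HuRKO activated, 54.3 in WT activated, 25.4 in HuRKO rest and 5.17 in WT rest cells. Most of the sum in activated cells is IGHM, at 297 in HuRKO activated against 34.5 in WT activated cells (FDR 1.3e-22 in the authors' deposited table). CD79B was at 17.2 in HuRKO activated against 19.8 in WT activated cells (FDR 0.77 in the authors' deposited table). Of 9 monocyte and macrophage markers, ITGAM and CSF1R are in the table, at a summed 106 in HuRKO activated, 74.3 in WT activated, 10.0 in HuRKO rest and 1.10 in WT rest cells, where both were below the floor. None of these 3 sums was lower in HuRKO activated than in WT activated cells. Of the natural killer cell markers GNLY and NCAM1 were higher there, KLRF1 was lower, at 10.6 in HuRKO activated against 27.2 in WT activated cells (FDR 0.043 in the authors' deposited table), and 3 were not called. Their part in the receptor results was not tested.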

How the data were processed

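Per the labels' protocols, libraries were directional and made from poly(A) RNA. The submitters' processing notes name TopHat, Bowtie2 and hg38. No source used here gives the counting tool, its strand setting or the test that produced the FDR. The authors deposited 1 table of 2587 genes with a mean signal (baseMean, taken as normalised counts over 12 libraries), log2 fold changes and an FDR, which is an adjusted p-value, for 4 comparisons. Base 2 is inferred: of levels below the floor in WT rest cells, up to 30.6% fall in a window 10% wide on base 2, against 5.34% on base e. There were 0 unmapped columns of values per sample.

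Group levels were rebuilt with pandas 2.3.3, assuming equal groups. Simulated levels without noise checked the arithmetic only, and cannot show how the authors' means and changes were made. The files do not give depth per library, so intervals were left out, and the floor allows for counting error alone. The labels do not state that replicates are separate cultures, so the FDR may rest on technical spread alone.

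Coordinates are from GENCODE 29 (hg38), in which 2577 gene IDs matched without their version. In 3′ UTR searches, 1 transcript a gene was taken by its APPRIS label, support level and length. Named genes are the 5 receptor genes, pathway genes of fixed lists (up to 6 a list, by FDR), the 3 genes nearest in pattern to each receptor gene, and genes within 250 kb. One gene nearest in pattern is not reported here. The receptor genes, lists and motifs were chosen with earlier results of these data known. Alternatives were other FDR and fold thresholds, other readings of the mean and of the log base, correlation in place of distance, and a wider neighbourhood. No p-value was adjusted over a list alone.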

Additional observations from a re-analysis of the deposited data

How the results depend on the processing

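Calls with an FDR threshold of 0.001, with a change of at least 2-fold, and with a change of at least 4-fold were set beside those at FDR below 0.05. With at least 4-fold, 3 of the 5 receptors were lower in HuRKO activated than in WT activated cells, and 0 were higher in HuRKO rest than in WT rest cells, since TNFRSF4 changed by 3.31-fold. With the threshold of 0.001, 1 rather than 2 receptors were lower in HuRKO activated than in HuRKO rest cells, since TNFRSF18 dropped out. The other counts of receptors called stayed within 1.5 times under these settings. Neighbours within 1 Mb rather than 250 kb gave 29.4% higher for HuRKO activated against WT activated, 41.2% lower for WT activated against WT rest, and 41.2% higher and 41.2% lower for HuRKO activated against HuRKO rest, where the nearer genes gave 0, 25.0, 25.0 and 62.5%. The wider window takes in more genes. Of 20 receptor levels, 11 moved by over 1.5 times with the changes read as natural logs and 12 with the mean read as geometric, neither of which can alter a direction. Both readings altered an order of levels per kb: TNFRSF9 came first in both activated groups with the geometric mean, which also changed places below TNFRSF4 at rest, and TNFRSF18 passed TNFRSF25 in HuRKO rest cells with natural logs. By correlation in place of distance, 2 of the 15 genes nearest in pattern were named again. No paired analysis was possible because the table has no values per sample, and leaving out a replicate could not be run for that reason. The levels of TNFRSF9 at rest and of TNFRSF18 in HuRKO activated cells lie next to the floor, which limits the folds that rest on them.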
